A study of Caenorhabditis elegans with 4 samples.

Results

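The furrow collagens of Caenorhabditis elegans are 6 cuticle proteins, encoded by dpy-2, dpy-3, dpy-7, dpy-8, dpy-9 and dpy-10, and their RNA was compared between rde-3 mutant and wild-type adults. The members were taken by gene name from the deposited table, which lists 18638 features, and all 6 were found there. Poly(A) RNA from whole gravid adults had been made into 4 libraries, 2 from the rde-3 mutant strain YY1449 and 2 from N2, the standard laboratory wild type. The series' design text calls them biological replicates. The mutated gene has 2 names, rde-3 and mut-2, and its product is an enzyme that extends RNAs with repeats of U and G. The labels name no allele and no treatment, and each genotype is a single strain, so that what rde-3 does and what else separates the strains cannot be told apart. The comparison asked which RNAs differ in level between these strains.

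Cuticle collagens are secreted by the epidermis and are built from short stretches of Gly-X-Y repeats that form a triple helix. The worm makes a new cuticle in the egg and at each molt, and the furrow collagens are laid down early in each such round. They line the annular furrows, the circular grooves that divide the cuticle surface into rings, and loss of any of them removes the furrows and gives a short, fat (dumpy) animal. In furrow mutants the epidermis is known to switch on osmotic, detoxification and antimicrobial genes.

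The deposited table gives 1 mean per feature over all libraries, each a sum of read counts divided by a size factor, a number proportional to the depth of a library. The lowest means are whole multiples of 4 steps, 1 for each library, and with these steps every one of the 15770 features with a mean under 1000 was resolved into whole reads per library. The same search on randomly shifted means solved 33, none of them with a mean under 100, where all 6 collagens lie. In features with means of 10 to 100 and reads in both groups, the deposited log2 fold change lay within 0.05 of the span between the pooled and the averaged ratio of the resolved reads for 99.9% (4724 of 4729). For means under 10, where dpy-3 lies (9.99), the share was 94.6% (4660 of 4927). The search starts near the deposited fold change, so this closeness is not independent of it. The mutant libraries, called M1 and M2 here, had size factors of 1.06 and 0.707, and the wild-type libraries, W1 and W2, had 1.42 and 0.963. These numbers follow the size factors and are not the labels' replicate numbers. The total depth is unknown; the resolved features held 2253381 and 1474159 reads in M1 and M2 and 3013370 and 2086022 in W1 and W2. Values below are reads divided by the size factor (normalized reads), and fold changes, standard errors and adjusted p-values are those of the authors' deposited table unless another test is named. Libraries were assigned to a genotype by the sign of the deposited fold change, read as mutant over wild type from the name of the comparison. For the mutated gene itself, mut-2, the libraries had 846 and 745 normalized reads in mutants and 726 and 805 in wild type (adjusted p = 0.905 in the authors' deposited table, log2 0.06 ± 0.16). With no allele named, this checks neither the labels nor the direction.

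Furrow collagen RNA was more abundant in the mutants for 3 of the 6 genes by the authors' deposited test, dpy-2, dpy-7 and dpy-10, and for none was it lower. Of all features, 9.42% were called higher and 8.04% lower in that table; among features with means of 5 to 100 the shares were 4.5% and 5.52%. Summed over the 6 genes, M1 and M2 held 233 and 449.7 normalized reads, against 127.6 and 96.6 in W1 and W2, from 564 reads in mutants and 274 in wild type. The median log2 value of the 6 genes was 1.80 in the authors' deposited table, against -0.02 over all features and -0.12 over those with means of 5 to 100. In 5 of the 6 genes both mutant libraries lay above both wild-type libraries, which was also so for 25.6% of features with means of 5 to 100; the reverse order, found in 0 of the 6, was seen for 34.2%. In whole animals, a difference in the number of cells that make an RNA and a difference in RNA per cell cannot be told apart.

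**Figure D1:**
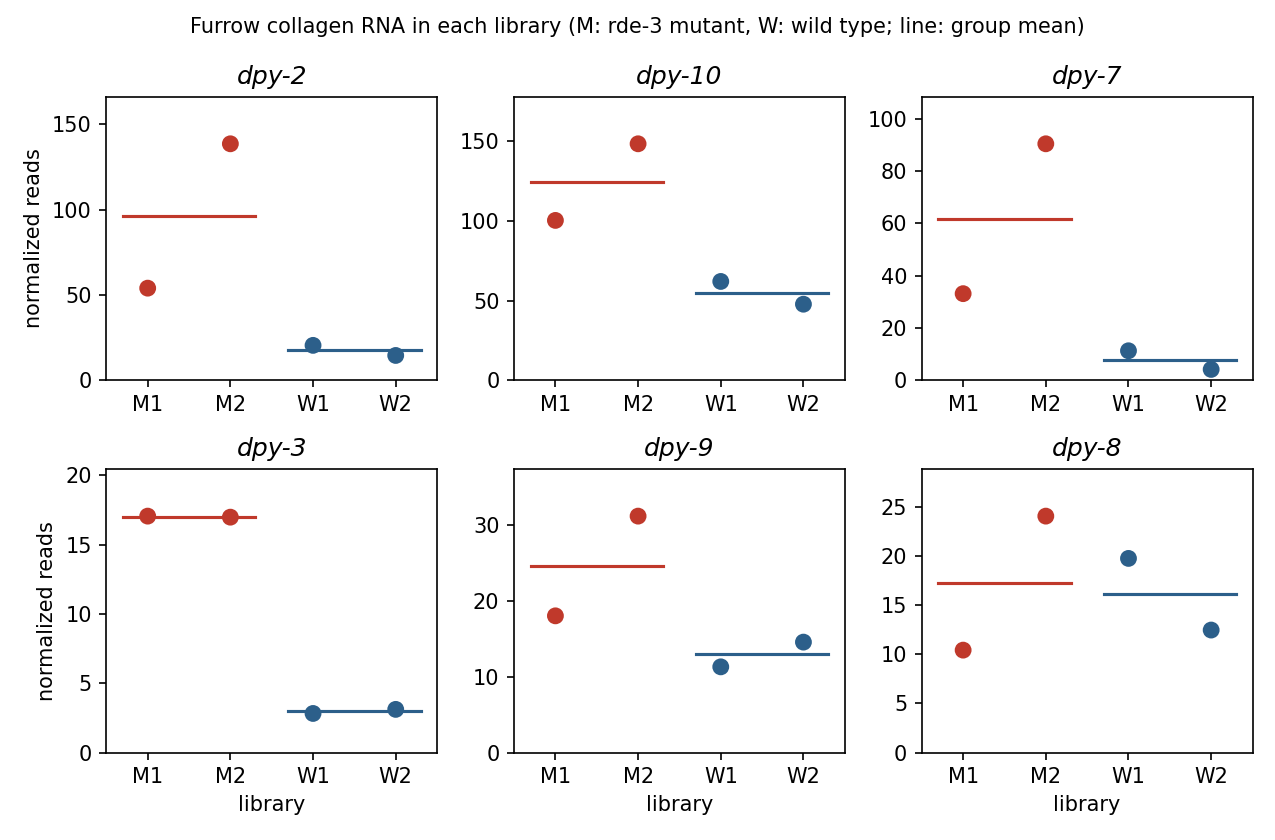
Normalized reads (vertical axis, from 0) of each furrow collagen gene in the mutant libraries M1 and M2 (red) and the wild-type libraries W1 and W2 (blue), with a line at each group's mean. Both mutant libraries lie above both wild-type libraries for every gene but dpy-8, and M2 is far above M1 for dpy-2 (139 against 54.0) and dpy-7 (90.5 against 33.1).

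dpy-7 encodes the furrow collagen whose promoter is widely used to drive genes in the epidermis, and it had the largest fold change of the 6. It had 33.1 and 90.5 normalized reads in M1 and M2, from 35 and 64 reads, against 11.3 and 4.15 in W1 and W2, from 16 and 4 reads. The groups do not overlap, and M1 lay 2.94 times above the higher wild-type library. It rose 7.67-fold in the authors' deposited table (log2 2.94 ± 0.70, adjusted p = 0.000402). The 2 libraries of each group differed by a factor of 2.73 in mutants and 2.72 in wild type, the widest spread of any member in both groups. The gene (WBGene00001069) lies on chromosome X at 7536467 to 7537792 of build WBcel235, on the minus strand, and has 2 exons.

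dpy-2 and dpy-10 are neighbours on chromosome II (build WBcel235), read in opposite directions away from each other. dpy-10 (WBGene00001072) lies at 6710149 to 6712227 on the minus strand and dpy-2 (WBGene00001064) at 6714292 to 6715971 on the plus strand, each with 5 exons, with 2064 bases between them. Mutations in dpy-10 are in everyday use as visible markers in worm genome editing. dpy-2 had 54.0 and 139 normalized reads in M1 and M2, from 57 and 98 reads, against 20.4 and 14.5 in W1 and W2, from 29 and 14 reads. The groups do not overlap, and it rose 5.40-fold in the authors' deposited table (log2 2.43 ± 0.54, adjusted p = 0.000119). dpy-10 had 100.4 and 148 normalized reads in M1 and M2, from 106 and 105 reads, against 62.0 and 47.8 in W1 and W2, from 88 and 46 reads. It rose 2.24-fold in the authors' deposited table (log2 1.16 ± 0.38, adjusted p = 0.0155), again with no overlap between the groups. The intervals of these neighbours overlap, log2 1.38 to 3.49 for dpy-2 and 0.43 to 1.90 for dpy-10 (95%, from the deposited errors), and their difference was not tested. The annotation also places T14B4.19 across 1217 bases of dpy-10 on the same strand, and how reads shared by both were counted is not given in the sources used here.

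dpy-3 had few reads and the most even libraries. It had 17.05 and 16.97 normalized reads in M1 and M2, from 18 and 12 reads, against 2.82 and 3.11 in W1 and W2, from 4 and 3 reads. Its groups stood further apart than those of any other member, with the lower mutant library 5.45 times above the higher wild-type library. Its fold in the authors' deposited table was 5.76, but with a wide error (log2 2.52 ± 1.08), and it missed the threshold (adjusted p = 0.0937). In limma's voom test on the resolved reads, which was added after the data were seen and called 24.3% of 12783 features (10.3% higher), dpy-3 passed (log2 2.39 ± 0.68, adjusted p = 0.0143). With so few reads, the small SD of the mutant libraries (0.05, n = 2) is below their counting error. dpy-3 (WBGene00001065) lies on chromosome X at 2144605 to 2145647, on the minus strand.

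dpy-9 and dpy-8 were not called. dpy-9 (WBGene00001071, chromosome IV, 257403 to 259204) had 17.99 and 31.1 normalized reads in M1 and M2, against 11.3 and 14.5 in W1 and W2. The groups did not overlap, but the gap between them was narrow, a factor of 1.24. Its log2 value in the authors' deposited table was 0.92 ± 0.76 (adjusted p = 0.544), with a 95% interval of -0.56 to 2.41. dpy-8 (WBGene00001070, chromosome X, 5148804 to 5150476) had 10.4 and 24.0 normalized reads in M1 and M2, against 19.7 and 12.5 in W1 and W2. Here the mutant libraries lay on either side of both wild-type libraries. Its log2 value in the authors' deposited table was 0.06 ± 0.82 (adjusted p = 0.980), and the 95% interval of -1.54 to 1.67 includes changes of the size seen for dpy-10 in both directions. The 3' end of dpy-8 overlaps C31H2.14 on the other strand over 109 bases, and the library kit keeps no record of strand; C31H2.14 had 30 reads in all.

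**Figure D2:**
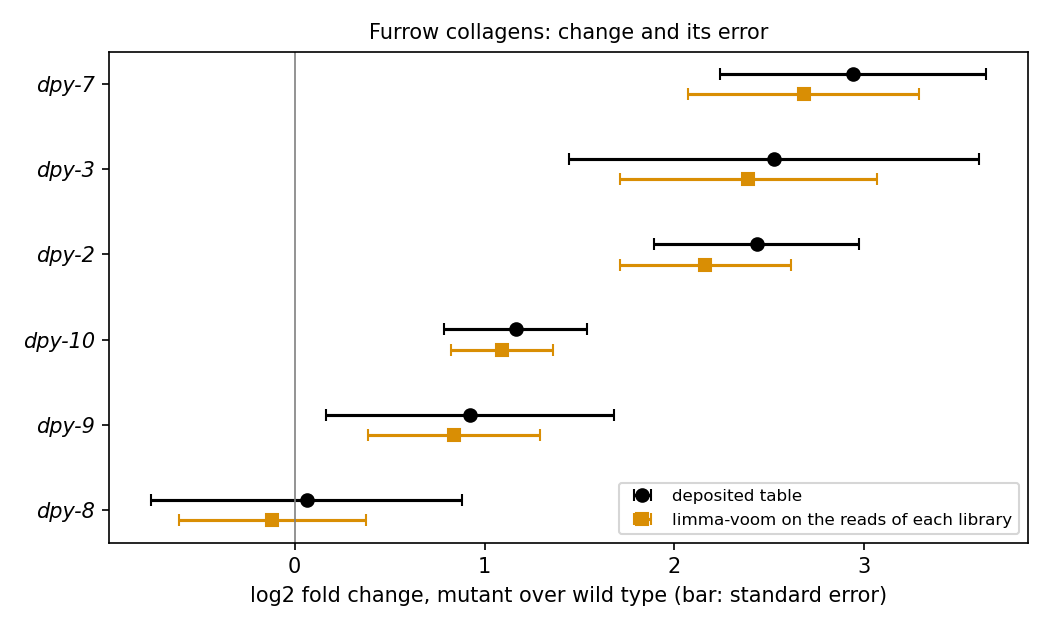
Log2 fold change of each furrow collagen gene, mutant over wild type, with its standard error, from the authors' deposited table (black circles) and from limma-voom on the reads of each library (orange squares). dpy-7, dpy-3 and dpy-2 lie above 2 in both, dpy-10 and dpy-9 lie near 1, and dpy-8 lies at 0.06 and -0.12.

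The 4 genes that limma-voom called, dpy-2, dpy-3, dpy-7 and dpy-10, include the 3 called in the authors' deposited table. The log2 values of that test for dpy-2, dpy-7 and dpy-10 were 2.16 ± 0.45, 2.68 ± 0.61 and 1.09 ± 0.27 (limma-voom adjusted p = 0.00174, 0.00331 and 0.00546). Single libraries weighed heavily on the size of the change in dpy-2 and dpy-7. For dpy-2, limma-voom gave log2 2.94 without M1, 1.59 without M2, 2.44 without W1 and 1.97 without W2. For dpy-7 it gave 3.52 without M1, 2.07 without M2, 3.47 without W1 and 2.15 without W2. Each of these fits leaves 1 library in a group, and the spread then comes from the other group. That a gene stays called in such a fit therefore cannot show that its call does not rest on single libraries. M2 lay above M1 in all members but dpy-3, by 2.57-fold for dpy-2, 2.31-fold for dpy-8, 1.73-fold for dpy-9 and 1.48-fold for dpy-10. Among 6243 features with means of 5 to 100, the median of M2 over M1 was 1.09, and 6.94% had a ratio at least as high as that of dpy-7. The call for dpy-10 was lost without W2 (limma-voom adjusted p = 0.05004), and that for dpy-3 without W2 (0.0724) or W1 (0.163).

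Per kilobase of exon, dpy-10 was the most abundant member in both genotypes, with 78.1 ± 21.4 normalized reads per kilobase in mutants and 34.5 ± 6.34 in wild type (SD, n = 2 each). In mutants dpy-2 followed at 72.7 ± 45.2, then dpy-7 at 53.9 ± 35.4, dpy-9 at 23.4 ± 8.84, dpy-3 at 17.7 ± 0.06 and dpy-8 at 11.4 ± 6.37 (SD, n = 2). Each neighbour in that order overlapped the next in library values except dpy-3 and dpy-8. In wild type dpy-2 followed dpy-10 at 13.2 ± 3.16, then dpy-9 at 12.3 ± 2.19, dpy-8 at 10.6 ± 3.40, dpy-7 at 6.73 ± 4.39 and dpy-3 at 3.09 ± 0.22 (SD, n = 2). There dpy-10 stood clear of dpy-2, and the middle genes overlapped their neighbours. dpy-3 lay below dpy-7 in both libraries, but in W2 that order rested on 3 reads against 4. dpy-7 thus stood above dpy-9 and dpy-8 in mutant means and below both in wild-type means. Those wild-type means rest on 20, 30 and 40 reads for dpy-7, dpy-9 and dpy-8, and the change of order was not tested.

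Apart from dpy-2 and dpy-10, which neighbour each other, the genes beside the collagens were called about as rarely as features in general. Of the 10 nearest listed neighbours that are not themselves members, 0 were called higher and 1 was called lower in the authors' deposited table, against 9.42% and 8.04% of all features, and their log2 values ran from -0.91 to -0.06. The gene called lower was pqbp-1.1, beside dpy-9, with log2 -0.48 ± 0.18 by the authors' deposited table (adjusted p = 0.0393). glb-16, whose annotated end is 16 bases from the start of dpy-7, stood at -0.86 ± 1.24 (log2) in the authors' deposited table, on a mean of 6.85 normalized reads.

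Among other collagens that shape the body most genes were not called, and 13 of 14 had a positive log2 value. Over all features, 9129 of 18638 had a positive value, and 9.42% were called higher and 8.04% lower, to set beside the counts below. By the authors' deposited table, 3 of 14 such collagens outside the furrows were higher, dpy-14, dpy-17 and sqt-3, 1 was lower, bli-6, and 10 were not called, with a median log2 value of 0.98. Loss of dpy-14 or sqt-3 is known to harm embryos and young larvae. dpy-14 had 351 and 660.4 normalized reads in M1 and M2, against 33.8 and 15.6 in W1 and W2 (log2 4.34 ± 0.68 in the authors' deposited table, adjusted p = 1.07e-08). dpy-17 had 328 and 331, against 47.9 and 36.3 (log2 2.95 ± 0.29, adjusted p = 1.61e-22), and sqt-3 had 506 and 585, against 133 and 124 (log2 2.08 ± 0.21, adjusted p = 5.04e-20), both by the authors' deposited table. bli-6, a collagen whose mutation blisters the adult cuticle, fell by 1.73 ± 0.32 on the log2 scale in the authors' deposited table, with 70.1 and 73.5 normalized reads in mutants and 288 and 188 in wild type. The other bli collagens listed, bli-1 and bli-2, did not fall with it (log2 0.20 ± 0.45 and 0.72 ± 0.82 in the authors' deposited table, neither called). Among all 141 col genes, 8 were higher and 32 were lower, and their median log2 value was -0.23 (-0.20 with the 6 genes that had no reads in 1 group set to their bound against 3 reads over that group, or left out where both groups were under it). The col genes that rose with the smallest adjusted p were col-165, col-74 and col-76 (1.33 ± 0.27 on the log2 scale for col-76, in the authors' deposited table). col-165 had 65 and 54 reads in M1 and M2, against 2 and 1 in W1 and W2, and col-74 had 56 and 36, against 3 and 1, too few wild-type reads for a stable fold. Those that fell with the smallest adjusted p were col-103, col-80 and col-19 (log2 -1.245 ± 0.13, -1.02 ± 0.12 and -1.12 ± 0.13 in the authors' deposited table).

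**Figure D3:**
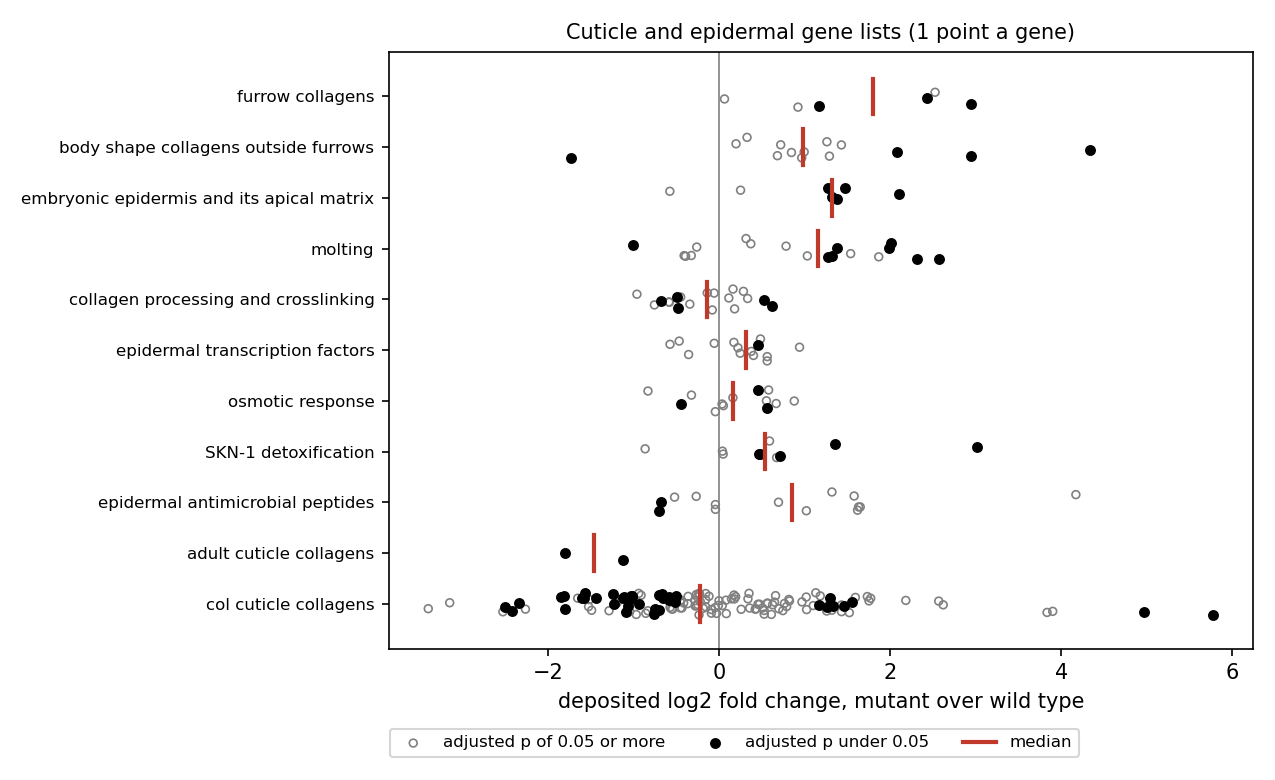
Deposited log2 fold change, mutant over wild type, of each gene in 11 lists of cuticle and epidermal genes (1 point a gene, black where the adjusted p is under 0.05, red bar at the median). The medians of the furrow collagens (1.80), the embryonic apical matrix (1.33), the molting genes (1.15) and the body shape collagens (0.98) lie above 0. So do those of the antimicrobial peptides (0.86), SKN-1 detoxification (0.54), the epidermal transcription factors (0.31) and the osmotic response (0.16). Below 0 lie those of the adult cuticle collagens (-1.46), the col genes (-0.23) and collagen processing (-0.14).

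Most genes listed for the embryonic epidermis and the matrix on its outer surface were higher in the mutants. The 2 adult cuticle collagens listed, col-7 and col-19, were lower. Over all features, 9.42% were called higher and 8.04% lower. By the authors' deposited table, 5 of the 7 genes listed for the embryonic epidermis were higher and none was lower. The median log2 value of this list was 1.33, and let-653 (-0.58 ± 0.59) and dex-1 (0.25 ± 0.33) were not called. Since noah-1, noah-2 and fbn-1 also stand in the molting list below, the 7 genes do not mark embryos alone. Those that rose were noah-1 and noah-2, which encode zona pellucida domain proteins (log2 1.33 ± 0.26 and 1.37 ± 0.28), the fibrillin-like gene fbn-1 (1.27 ± 0.28), sym-1, a leucine-rich repeat gene (1.47 ± 0.40), and the lipocalin gene lpr-3 (2.10 ± 0.59), all in the authors' deposited table. Summed over the 7 genes, M1 and M2 held 1022 and 1058 normalized reads, against 512 and 447 in W1 and W2. The adult collagens col-7 and col-19 both fell (log2 -1.80 ± 0.45 and -1.12 ± 0.13 in the authors' deposited table), with col-7 at 26.5 and 52.3 normalized reads in mutants and 176 and 91.4 in wild type. That list of 2 genes does not stand for all collagens of the adult cuticle. Of the bli collagens, kept in another list, bli-6 fell, and bli-1 (0.20 ± 0.45) and bli-2 (0.72 ± 0.82) were not called. Of 12 general epidermis genes, 0 were higher and 1 was lower, the intermediate filament gene ifb-1 (log2 -0.62 ± 0.12), by the authors' deposited table, with a median of 0.04. Of these, lin-26, elt-1, elt-3, sta-2 and rol-6 also stand in other lists used here. The 7 general epidermis genes with resolved reads summed to 684 and 800.4 normalized reads in mutants and 769 and 709 in wild type, which overlap. The excess of M2 over M1 differed between these lists: M2 stood at 1.93 times M1 for the furrow sum, 1.43 times for the other body shape collagens, 1.97 times for col-7 and 1.04 times for the embryonic sum. The part of embryonic epidermis in the furrow collagen result was not tested.

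The markers of the labelled stage were present. Shares called over all features, to set beside the counts below, were 9.42% higher and 8.04% lower. These shares are not matched to the high means of the oocyte genes. There the standard errors were 0.12 to 0.15, against a median of 0.73 for features with means of 5 to 100, so smaller changes can be called. By the authors' deposited table, 6 of 8 genes of oocytes and gravid adults were higher and 1 was lower (median log2 0.46), all with means of at least 5128 normalized reads, among them cpg-2 at 0.75 ± 0.12, puf-5 at 0.56 ± 0.13 and vit-2 at -0.90 ± 0.15. All 6 sperm genes were lower (median log2 -3.23), with summed levels of 97.5 and 106 normalized reads in mutants and 880.0 and 655 in wild type. Of 7 early zygotic embryo genes, 0 were called in the authors' deposited table (median log2 0.14, or 0.37 with the gene that had no reads in mutants left out), with sums of 184 and 246 normalized reads in mutants and 169 and 140.2 in wild type. The 2 with the highest means, ref-1 and elt-7, stood at 0.93 ± 0.40 and 0.14 ± 0.43 (log2) by the authors' deposited table. The part of the lower sperm RNA in the furrow collagen result was not tested.

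**Figure D4:**
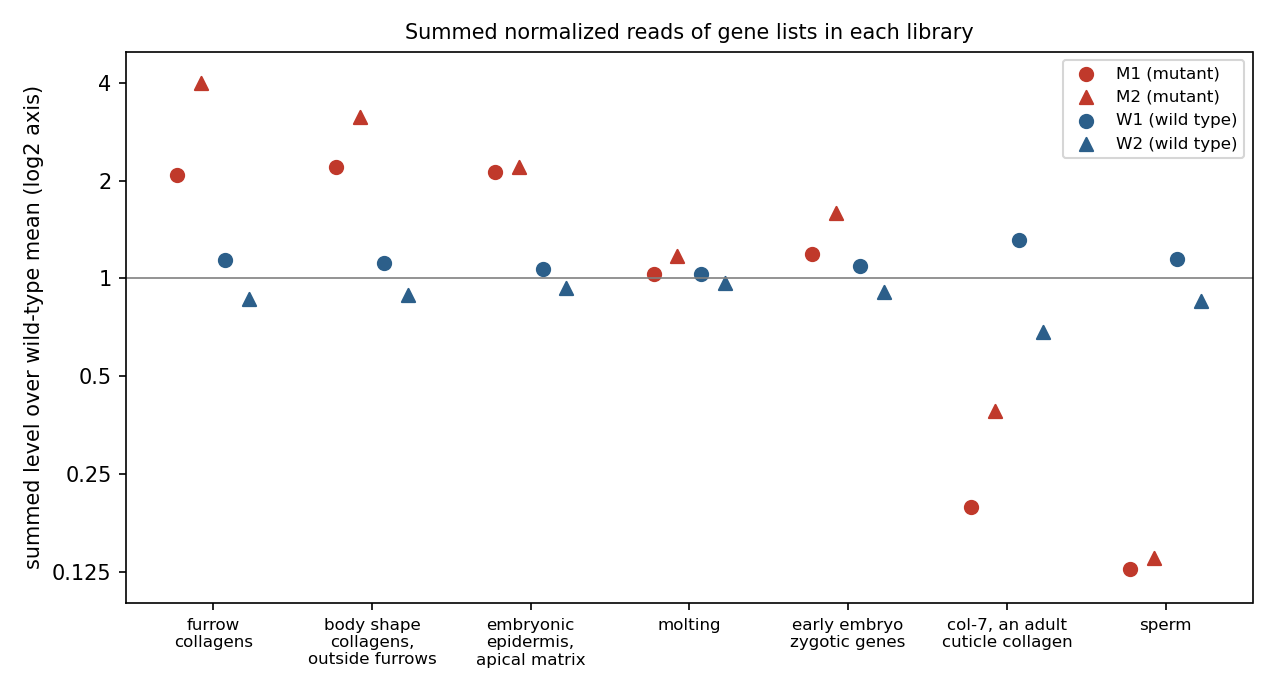
Summed normalized reads of gene lists in each library, divided by the mean of the 2 wild-type libraries (log2 axis; red, mutant M1 and M2; blue, wild type W1 and W2). The furrow collagens stood at 2.08 and 4.01 in M1 and M2, the embryonic apical matrix at 2.13 and 2.21, col-7 at 0.20 and 0.39, and sperm genes at 0.13 and 0.14.

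Genes that act in molting moved in part, beside 9.42% of all features called higher and 8.04% called lower. By the authors' deposited table, 7 of 18 were higher and 1 was lower (median log2 1.15), and 3 of the 7, noah-1, noah-2 and fbn-1, are also in the embryonic list. mlt-11, a protease inhibitor gene needed for molting, had 174 and 245 normalized reads in M1 and M2, against 44.4 and 39.5 in W1 and W2 (log2 2.31 ± 0.34 in the authors' deposited table, adjusted p = 3.72e-10). ptr-4, a patched-related gene, had 60.6 and 119, against 16.2 and 13.5 (log2 2.57 ± 0.53 in the authors' deposited table). nas-37, whose metalloprotease helps to shed the old cuticle, fell by 1.008 ± 0.15 on the log2 scale in the authors' deposited table. Of 14 epidermal transcription factors 1 was higher and 0 were lower, which is not above the shares over all features. The factor called higher was nhr-23, a nuclear receptor that drives molting genes (adjusted p = 0.0223, log2 0.46 ± 0.15 by the authors' deposited table). The median of these factors was 0.31.

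Most genes whose products process collagens were not called, to be read against 9.42% higher and 8.04% lower over all features. By the authors' deposited table, 2 of 19 genes for folding, hydroxylation, cleavage and crosslinking were higher and 3 were lower (median log2 -0.14). Positive log2 values were found in 7 of the 19. Of 12 with resolved reads, both mutant libraries lay below both wild-type libraries in 8 and above them in 0. For features with means of 5 to 100, a range not matched to these genes, the shares were 34.2% below and 25.6% above. The disulfide isomerase genes pdi-3 and pdi-1 rose (log2 0.62 ± 0.12 and 0.53 ± 0.12), and phy-2 and pdi-2, which encode subunits of the prolyl hydroxylase of collagens, fell (-0.68 ± 0.23 and -0.48 ± 0.11), as did the dual oxidase gene bli-3 (-0.49 ± 0.16), all in the authors' deposited table.

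The responses that the loss of furrow collagens is known to switch on differed in their counts of calls, to be read against 9.42% higher and 8.04% lower over all features. In the osmotic and damage signalling lists few genes were called, near those shares. Of 13 genes of the osmotic response, 2 were higher, the glycerol-3-phosphate dehydrogenase gene gpdh-2 (log2 0.56 ± 0.13) and the kinase gene wnk-1 (0.45 ± 0.14), and 1 was lower, the trehalose synthase gene tps-2 (-0.45 ± 0.15), in the authors' deposited table (median 0.16). Of 14 antimicrobial peptide genes of the epidermis, 0 were higher and nlp-27 and nlp-33 were lower (log2 -0.70 ± 0.20 and -0.69 ± 0.26 in the authors' deposited table), while the list's median was 0.86. That median differs in sign from the calls. Of these peptide genes, 8 had positive log2 values and 8 had a mean of at least 10, and only nlp-28 and nlp-29 had both. Of 15 genes of epidermal damage signalling, nipi-3, a Tribbles-like kinase gene, alone was called, and it rose (log2 0.61 ± 0.14 in the authors' deposited table; list median -0.18). Of 10 genes of the SKN-1 detoxification pathway, 5 were higher and none was lower by the authors' deposited table (median 0.54). Among the detoxification enzyme genes, gst-38 stood at log2 3.02 ± 0.38, gst-5 at 1.36 ± 0.21 and gcs-1 at 0.46 ± 0.14. The called genes skn-1 (0.71 ± 0.13) and wdr-23 (0.48 ± 0.13) are regulators, so the count is not one of detoxification genes alone. In the same list gst-4, gst-7, gst-10, gst-12 and nit-1 were not called. The standard reporters of these responses, picked after their values were seen, were not called. gpdh-1 had 71.0 and 148 normalized reads in M1 and M2, against 176 and 211 in W1 and W2 (adjusted p = 0.0776). nlp-29 had 81.4 and 194, against 67.7 and 23.9 (adjusted p = 0.274), and gst-4 had 135 and 355, against 183 and 124 (adjusted p = 0.692), all by the authors' deposited table. In each of these reporters, as in dpy-2, dpy-7 and dpy-8, M2 lay more than 2-fold above M1. In dpy-3, dpy-9 and dpy-10 it did not (1.00, 1.73 and 1.48 times M1). Among 6243 features with means of 5 to 100, 10.4% had a ratio at least that of dpy-8 (2.31). The means of gpdh-1 and gst-4 lie above that range.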

How the data were processed

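Per the labels, poly(A) RNA was made into Nextera XT libraries, and the tools listed in the submitters' processing notes are STAR 2.7.0a, SAMtools 1.3.1, cutadapt 1.14 and Trim Galore 0.4.4, with builds ce11 and WBcel235. For the counting tool and the statistical model: not given in the sources used here. Per the file headers, the authors deposited a mean of normalized counts over the libraries (a signal), a log2 fold change, its standard error, a test statistic (a score), a p-value and an adjusted p-value; the smaller table holds the 3254 features with an adjusted p under 0.05. Calls use that adjusted p.

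Reads per library were resolved in Python 3.11.15 as whole numbers whose sum over size factors gives the deposited mean to 15 digits, searched near the reads that the deposited log2 value implies; where several sets were found, one was kept only if it alone lay within 0.05 of that value. On simulated counts 1966 of 1966 were resolved correctly. Those counts were drawn from features with means under 300, so higher means were not covered. The search was given the fitted steps and a log2 value computed from the simulated counts, and so started near the answer. The 2868 features with means of 1000 or more have no values per library. limma 3.58.1 (voom, R 4.3.3) was run on resolved features with at least 10 reads. On simulated data it called 83 of 100 features changed by log2 of 2, 44 of 100 changed by log2 of 1, and 4 of 12343 unchanged ones. The simulation changed few features and gave all of them the same spread setting, which was not matched to the furrow collagens. These shares are therefore not error rates for the calls on those genes. Another count test had been planned for reads; limma-voom was chosen after seeing the data, because the deposited values are means. With 2 libraries a group, the limma-voom p-values rest on the spread between these samples, with that of other features also drawn on. How the deposited test estimates spread is not given in the sources used here.

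Lengths and coordinates came from Ensembl 115 (WBcel235), in which 17986 of 18468 genes were found. No sequence was used. Named genes were the members, their nearest listed neighbours, and in each list up to 6 called genes of smallest adjusted p (3 in each direction for col genes; the 2 of highest mean where none was called). The members and lists were chosen with earlier results of these data known, so no list was tested.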

Additional observations from a re-analysis of the deposited data

How the results depend on the processing

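Of the 6 furrow collagens, 3 were called in the deposited table, at a threshold of 0.05. The number and the direction of the calls held after adjustment over features with means of at least 10 (which leaves out dpy-3), after recentring on the median of genes with means of at least 100 (a shift of 0.05) and after subtracting a line fitted on transcript length. At a threshold of 0.01 the call for dpy-10 was lost. With a t distribution with 2 degrees of freedom 0 members were called (smallest adjusted p over all features = 0.682); at an unadjusted p under 0.05 that gives 1, and limma-voom called 4. With limma-voom dpy-8 had a log2 value of -0.12. When 1 library was left out in turn, limma-voom called 2 to 4 members, and the median log2 value ran from 1.22 to 1.90. In those fits dpy-2 ran from 1.59 to 2.94, dpy-3 from 2.27 to 2.47, dpy-7 from 2.07 to 3.52, dpy-8 from -0.62 (without M2) to 0.57 (-0.38 without W2), dpy-9 from 0.51 to 1.29 and dpy-10 from 0.85 to 1.41; a group left with 1 library is assumed to vary like the other. No paired analysis was possible because the resolved libraries carry no replicate numbers. The median standard error of log2 for features with means of 5 to 100 was 0.73; depth and the number of libraries both bear on it and were not separated.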
